A study of Mus musculus with 2 samples.

Results

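The miR-26 and miR-101 genes of the mouse are 5 microRNA genes: Mir26a-1, Mir26a-2, Mir26b, Mir101a and Mir101b. They were found by symbol through their Ensembl identifiers, and all 5 were among the 1973 gene rows of each library. The libraries are microRNA-seq of the hindbrain of B6NCrl mouse embryos at embryonic day 15.5, each from a pool of embryos of both sexes, 78 in replicate 1 and 62 in replicate 2. No treatment, mutant allele or second age is part of the series, so the members' levels are described, and the 2 pools are the only libraries that can be compared. Whole hindbrain was used, and a lower level cannot be told apart from fewer cells that make the microRNA.

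A microRNA gene is transcribed as a hairpin, from which Drosha and Dicer cut a 5p and a 3p arm. An arm held by an Argonaute protein pairs with messenger RNAs through its seed, which is bases 2 to 8 counted from its 5′ end, and lowers their stability and translation. miR-26 and miR-101 are known for pairing with the 3′ UTR of Ezh2, the histone methyltransferase of Polycomb repressive complex PRC2, which places the repressive mark on lysine 27 of histone H3 and keeps neural progenitors from maturing early. The miR-26 genes are also known for their hosts: the Ctdsp genes encode small phosphatases that act with the repressor Rest to hold neuronal genes silent outside neurons, and miR-26b represses ctdsp2 during neurogenesis in zebrafish.

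The mature arms decide both which targets a member can pair with and which gene a read can be assigned to, so they are shown first. All 5 genes were matched in the RefSeq table (build GRCm38.p6), with 10 arms under 9 names. The main arm of miR-26 is 5p and that of miR-101 is 3p, and the capitals mark the seed.
mmu-miR-26a-5p: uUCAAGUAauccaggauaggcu
mmu-miR-26b-5p: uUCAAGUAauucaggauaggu
mmu-miR-101a-3p: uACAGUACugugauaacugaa
mmu-miR-101b-3p: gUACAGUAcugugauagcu
The miR-26 arms had the same seed, UCAAGUA, which no other arm in the RefSeq mouse table carried. Counted from the 5′ end of miR-26a-5p, they differed by C11U and C21U, and 19 of 21 aligned bases were the same. The miR-101 arms did not have the same annotated seed. RefSeq starts miR-101b-3p 1 base earlier, which moves its seed to UACAGUA, against ACAGUAC in miR-101a-3p. In the shared frame the miR-101 arms differed by A16G alone, counted on miR-101a-3p, over 18 aligned bases.

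The other arms of these hairpins are shown because they, and not the shared 5p arm, tell Mir26a-1 from Mir26a-2. The capitals again mark the seed.
mmu-miR-26a-1-3p: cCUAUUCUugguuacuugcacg
mmu-miR-26a-2-3p: cCUGUUCUugauuacuuguuuc
mmu-miR-26b-3p: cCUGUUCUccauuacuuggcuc
mmu-miR-101a-5p: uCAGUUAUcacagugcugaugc
mmu-miR-101b-5p: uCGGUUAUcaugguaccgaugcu
The 3p arms of Mir26a-1 and Mir26a-2 differed at 6 of 22 bases, 1 of them, A4G, within the seed. The 3p arms of Mir26a-2 and Mir26b had the same seed, CUGUUCU, which miR-6932-3p and miR-7039-3p also carry. The miR-101 5p arms differed at 5 of 22 bases, with A3G within the seed.

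The hairpins show how far a read must reach before it belongs to 1 gene. Here the capitals mark the longest exact stretch shared with the closest other microRNA hairpin. For Mir26b it is the longest shared with another member, as stretches this short were compared among the members only.
Mir26a-1: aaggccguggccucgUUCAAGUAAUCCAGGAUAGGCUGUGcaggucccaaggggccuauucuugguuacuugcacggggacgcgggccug
Mir26a-2: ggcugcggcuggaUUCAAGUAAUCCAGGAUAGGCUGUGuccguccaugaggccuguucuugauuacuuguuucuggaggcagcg
Mir26b: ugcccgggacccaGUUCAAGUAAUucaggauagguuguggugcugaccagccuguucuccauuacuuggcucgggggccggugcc
Mir101a: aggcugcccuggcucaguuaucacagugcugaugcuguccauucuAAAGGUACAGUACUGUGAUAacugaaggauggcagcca
Mir101b: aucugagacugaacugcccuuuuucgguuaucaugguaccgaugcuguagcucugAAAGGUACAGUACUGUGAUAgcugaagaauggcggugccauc
Mir26a-1 and Mir26a-2 share 25 nt, which holds all 22 bases of miR-26a-5p and the 3 bases after it. A read of miR-26a-5p therefore matches both genes exactly. Mir101a and Mir101b share 20 nt, but this stretch ends 6 bases before the end of miR-101a-3p and 3 bases before that of miR-101b-3p, so a read of the whole arm matches 1 of them. Mir26b shares at most 11 nt with Mir26a-1 and 10 nt with Mir26a-2. A stretch of 20 nt or more in common with another microRNA hairpin was thus found in 4 members, Mir26b being the exception.

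A further locus carries most of the main arm of Mir101a. Mir101c, annotated on chromosome 9 and not analysed here, shares 19 nt with it, in capitals in the arm miR-101a-3p: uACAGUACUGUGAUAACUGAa. Mir101c has no row in the deposited counts, so its level could not be given. Reads of miR-101a-3p that lack its first and last base match both loci, and how many there were was not tested. Outside microRNA genes, the 9 arms had no exact match in other GENCODE M21 transcripts on either strand, apart from both Mir101a arms in the transcript that holds Mir101a itself.

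**Figure D1:**
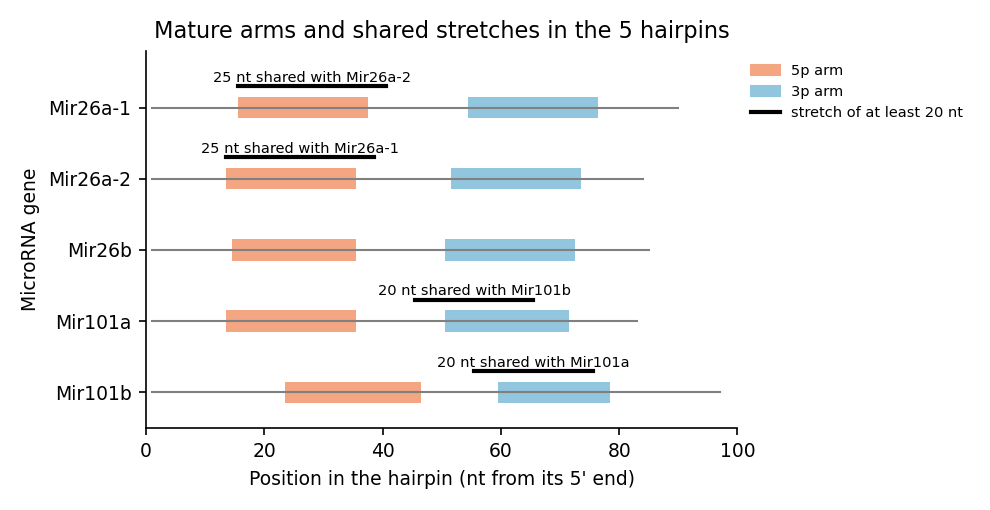
Mature arms (coloured blocks) and stretches of at least 20 nt shared with another of the 5 hairpins (black lines), by position in nt from the 5′ end of each hairpin. The shared stretch of 25 nt covers the whole 5p arm of Mir26a-1 and Mir26a-2, while that of 20 nt covers part of the 3p arm of Mir101a and Mir101b, and Mir26b has none.

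All 3 miR-26 genes lie on the strand of a Ctdsp gene (mm10, annotation GENCODE M21). Mir26b (ENSMUSG00000065468.1) is at chr1:74394310-74394394 on the plus strand, in intron 4 of a 7-exon transcript of Ctdsp1, and this intron is 564 bp long. Mir26a-2 (ENSMUSG00000065430.1) is at chr10:126995530-126995613, plus strand, in intron 5 of an 8-exon Ctdsp2 transcript. An exon of 2 other annotated Ctdsp2 transcripts overlaps part of its hairpin, and neither arm lies whole in them. Mir26a-1 (ENSMUSG00000065513.1) is at chr9:119031796-119031885, plus strand, in intron 5 of an 8-exon Ctdspl transcript. The miR-101 genes have unrelated surroundings. Mir101b (ENSMUSG00000065556.1), at chr19:29135279-29135375 on the plus strand, is in intron 8 of Rcl1, a gene of ribosomal RNA processing. Mir101a (ENSMUSG00000065451.1), at chr4:101346945-101347027 on the minus strand, is in an exon of the long noncoding RNA E130102H24Rik.

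Mir26b was the leading member by far. It had 63248 reads in replicate 1 and 73567 in replicate 2, or 16062 and 15201 CPM, the count scaled to 1000000 gene reads of its library (mean 15631 ± 609, SD, n = 2). Both libraries were thus close, and Mir26b took rank 15 of the 1973 genes in each of them. It held 1.56% ± 0.0609 of all gene reads.

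The miR-101 genes were expressed at intermediate levels. Mir101b had 5078 and 6453 reads, which is 1290 and 1333 CPM (mean 1311 ± 31.0, SD, n = 2), at rank 86. Mir101a had 1764 and 2289 reads, which is 448 and 473 CPM (mean 460 ± 17.7, SD, n = 2), at rank 124. Mir101b exceeded Mir101a 2.88-fold in replicate 1 (exact 95% interval 2.73 to 3.04) and 2.82-fold in replicate 2 (2.69 to 2.96). Their proportion was therefore nearly the same in both pools, with Mir101b at 74.2% and 73.8% of the miR-101 reads. Together the miR-101 genes held 0.177% ± 0.00487 of gene reads (SD, n = 2).

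Few reads were assigned to the miR-26a genes. Mir26a-2 had 73 and 132 reads (18.5 and 27.3 CPM, mean 22.9 ± 6.18, SD, n = 2) at rank 277. Mir26a-1 had 15 and 31 reads (3.81 and 6.41 CPM, mean 5.11 ± 1.84, SD, n = 2) at rank 329. Both stood above the limit that a count of 0 allows, which is 0.762 CPM in replicate 1 and 0.62 CPM in replicate 2 (3 reads, counting error only). Mir26a-2 exceeded Mir26a-1 4.87-fold in replicate 1 (exact 95% interval 2.77 to 9.14) and 4.26-fold in replicate 2 (2.86 to 6.52).

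**Figure D2:**
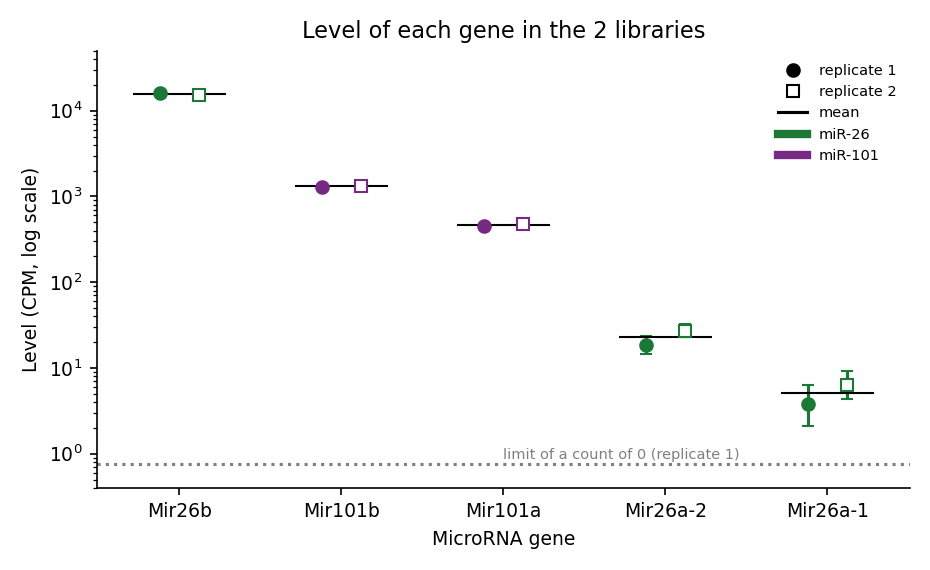
Level of each gene in CPM on a log axis, with replicate 1 as filled circles, replicate 2 as open squares, exact 95% counting intervals as bars (smaller than the symbols for the upper 3 genes) and the mean of the 2 libraries as a black line. Mir26b stands at 15631 CPM and Mir26a-1 at 5.11 CPM, and the libraries lie close together for every gene above 400 CPM.

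These counts of the miR-26a genes are not the level of miR-26a-5p. The deposited tables give reads that fit more than 1 locus a row of their own, which held 2947397 reads in replicate 1 and 3596192 in replicate 2. That is 46.6 and 48.9 times the reads of Mir26b. How many of them were miR-26a-5p cannot be read from these tables, and the ratio of Mir26b to Mir26a-2, 866 and 557, or to Mir26a-1, 4217 and 2373, is one of assigned reads only. The sum of the miR-26 genes, 1.57% ± 0.0601 of gene reads (SD, n = 2), came to 99.8% ± 0.0581 from Mir26b, and it leaves those reads out. Reads of the 3p arms, or of a 5p arm that runs beyond the shared 25 nt at either end, are among those that match 1 of the miR-26a genes. The arms are not counted separately, so which part of the hairpin gave the 15 to 132 reads was not tested.

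The order Mir26b, Mir101b, Mir101a, Mir26a-2, Mir26a-1 was the same in both libraries and when levels were scaled by hairpin length. Per 100 nt of hairpin the levels were 18390 CPM for Mir26b, 1352 for Mir101b, 555 for Mir101a, 27.3 for Mir26a-2 and 5.67 for Mir26a-1. Every gap between neighbours in this order was larger than the SD of both its genes over the pools, the smallest being the 2.82-fold gap of Mir101b over Mir101a in replicate 2. Mir26b exceeded Mir101b 12.5-fold and 11.4-fold, and Mir101a exceeded Mir26a-2 24.2-fold and 17.3-fold. With 2 libraries an exact permutation test cannot reach 0.05, so no p-value is given for this order. It orders assigned reads; molecules per gene were not measured.

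Genes nearest in mean CPM give the scale of these levels. Mir17, of the proliferation-linked miR-17-92 cluster, stood directly above Mir26b at 17206 ± 1095 CPM, and Mir181c directly below at 11841 ± 63.6 CPM (SD, n = 2). Mir101b lay between Mir34c (1319 ± 178 CPM) and Mir128-2 (1305 ± 169 CPM), and both of these had fewer reads than Mir101b in replicate 1 and more in replicate 2, so their order with it is not resolved. Mir101a lay between Mir501 (477 ± 15.8 CPM) and Mir669o (453 ± 0.458 CPM), whose levels differ from it by less than its own spread. Mir26a-2 lay between Gm23450 (23.9 ± 4.28 CPM) and Mir574 (21.1 ± 2.43 CPM), and Mir26a-1 between Mir292 (5.14 ± 1.71 CPM) and Mir675 (5.04 ± 0.410 CPM). None of these last 4 differed from its member by more than the spread of the member.

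**Figure D3:**
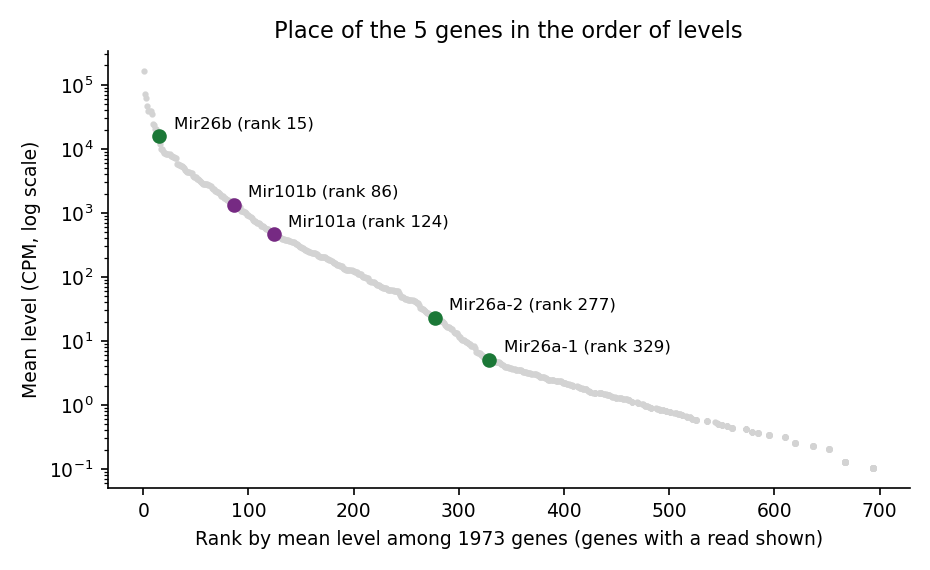
Mean level in CPM on a log axis against the rank of each gene with a read, in grey, with the miR-26 genes in green and the miR-101 genes in purple. Mir26b is at rank 15, Mir101b and Mir101a at 86 and 124, and Mir26a-2 and Mir26a-1 at 277 and 329.

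The 2 pools were compared to see how far each member varies between biological replicates. Levels of Mir101b, Mir101a and Mir26b were nearly the same in both pools, while Mir26a-2 and Mir26a-1, which have few reads, were higher in replicate 2 in CPM. After TMM scaling, which removes overall differences between libraries, each gene was compared by an exact two-sided conditional binomial test with Benjamini-Hochberg adjustment over 426 genes, those that reached 10 reads in either library. It sets 1 library against the other, so it takes in the error of counting reads and no other.

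Of the 5 members, all tested, 2 passed an adjusted p of 0.05, against 35.9% of all genes tested. Mir26b was lower in replicate 2, with a log2 ratio of -0.10 (95% exact interval -0.11 to -0.08, exact binomial test, adjusted p = 1.30e-33), which is 0.935-fold. This difference is small, and 297 of the 426 genes had a larger one in either direction. Mir26a-2 was higher in replicate 2, with a log2 ratio of 0.54 (0.12 to 0.97, exact binomial test, adjusted p = 0.0322), or 1.45-fold. By direction the background was 15.3% of genes called higher and 20.7% called lower in replicate 2, with 1 member each.

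The other 3 members did not pass. Mir101b had a log2 ratio of 0.03 (95% exact interval -0.02 to 0.08, adjusted p = 0.412 by the exact binomial test), so a difference beyond 1.06-fold lies outside its counting interval. Mir101a had 0.06 (-0.03 to 0.15, adjusted p = 0.320 by the exact binomial test). Mir26a-1 had the largest ratio of the 5, 0.73, but on 15 and 31 reads its interval runs from -0.20 to 1.73 (exact binomial test, adjusted p = 0.262), and no difference was detectable at this depth. The median log2 ratio was 0.06 over the 5 members and -0.01 over all genes tested.

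Counting error leaves out the variation between pools, and neither call held when such variation was allowed. When every gene was assumed to vary by a coefficient of 0.1, the exact test of edgeR called 0 members, against 1.41% of all genes, at an adjusted p of 0.05. At an unadjusted p of 0.05 it called 0 members, against 7.51% of all genes. At a coefficient of 0.2 it called 0 members and 0.0% of all genes adjusted, and 0 members and 2.82% of all genes unadjusted. At 0.1 the adjusted p of edgeR's test was 1 for Mir26b and 0.645 for Mir26a-2.

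**Figure D4:**
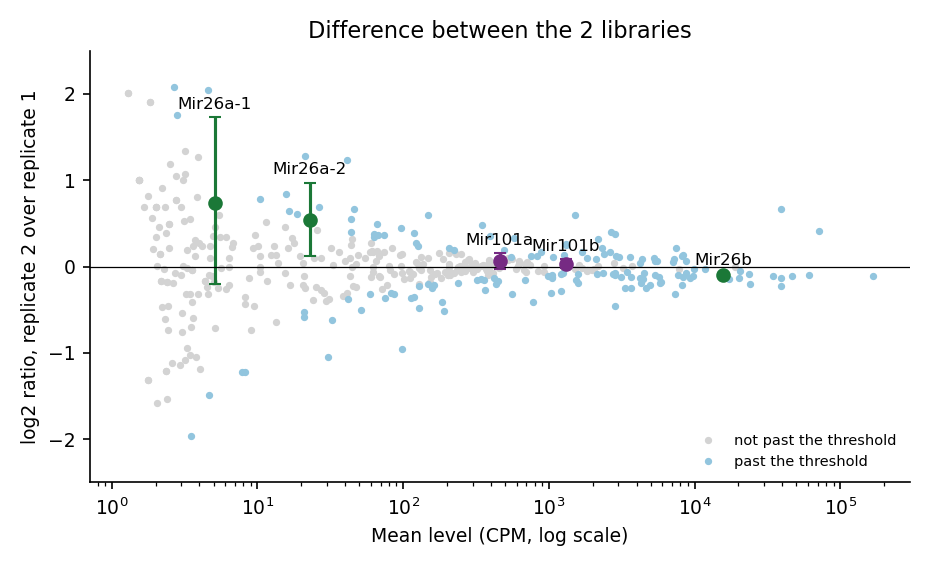
The log2 ratio of replicate 2 over replicate 1 after TMM scaling against mean CPM on a log axis, for 425 of the 426 genes tested (1 lies beyond the axis), with genes past the binomial threshold in blue and the members with exact 95% intervals. The intervals of Mir26a-1 and Mir26a-2 are wide, and the ratios of Mir101a, Mir101b and Mir26b lie between -0.10 and 0.06.

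All reads at the 5 members lay on the gene's own strand. The opposite strand held 0 reads at each of them in both libraries, which at Mir26b allows a share of up to 0.00474% of its reads in replicate 1 and 0.00408% in replicate 2 (3 reads, counting error only). At Mir26a-1 the same count of 0 allows up to 20% and 9.68%. An opposite strand without reads was usual: 132 of the 155 genes with at least 1000 own-strand reads in each library had none there.

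Target transcripts were not measured in these libraries, but the seed matches in Ezh2 for which the members are known can be read from the annotation. The longest annotated 3′ UTR of Ezh2 is 402 nt long (GENCODE M21, chromosome 6, minus strand). It was searched on the transcript strand for the 7 bases complementary to seed bases 2 to 8: TACTTGA for miR-26, GTACTGT for miR-101a-3p and TACTGTA for miR-101b-3p. The windows below are 25 bases long, with the match in capitals.
Ezh2, miR-26, chr6:47530279-47530303: gaataaagaaTACTTGAacttgttg
Ezh2, miR-101a-3p, chr6:47530468-47530492: ggaaccttgaGTACTGTgggcaatt
Ezh2, miR-101a-3p, chr6:47530413-47530437: aatttgcaaaGTACTGTaacagtaa
Ezh2, miR-101b-3p, chr6:47530412-47530436: atttgcaaagTACTGTAacagtaat
The Ezh2 3′ UTR thus held 1 match for miR-26, 2 for miR-101a-3p and 1 for miR-101b-3p, and all of these lay in the 3′ UTR of 4 of 4 coding Ezh2 transcripts that have one. The miR-101b-3p match overlaps the second miR-101a-3p match, shifted by 1 base, as GTACTGT and TACTGTA share 6 bases. Every miR-101b-3p match rests on the annotated 5′ end of this arm. An arm of Mir101b that starts 1 base later would have the seed of miR-101a-3p and its 2 matches. Which 5′ end the reads had cannot be read from gene counts. Among all 20954 genes with an annotated 3′ UTR, 9.71% held the miR-26 match, 9.42% the miR-101a-3p match and 12.3% the miR-101b-3p match. Among the 1797 whose 3′ UTR is within 20% of the length of that of Ezh2, these shares were 2.89%, 2.73% and 2.67%. A match is a description of the sequence and does not show binding in these embryos.

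**Figure D5:**
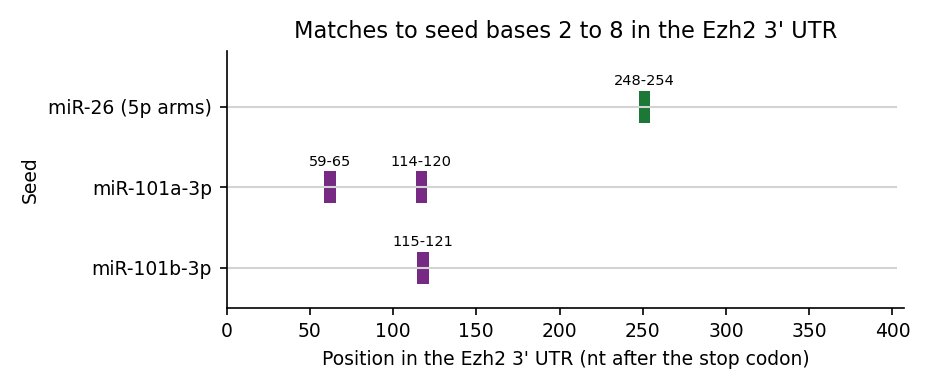
Position of each 7-base seed match in the Ezh2 3′ UTR, in nt after the stop codon, with 1 line for each seed. The miR-101 matches lie at 59 to 65 and 114 to 121, and the miR-26 match at 248 to 254, of 402 nt.

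Other PRC2 subunits, the host family and Rest were searched in the same way. Suz12, a core PRC2 subunit, held 1 miR-26 match, and Eed, the subunit that binds the methylated histone tail, held 1 miR-101a-3p match. Ezh1, the paralog of Ezh2, held no 7-base match to the 3 seeds in the UTR searched. Among the hosts, Ctdsp2 held 1 miR-26 match and Ctdspl 1 miR-101b-3p match, and the related Ctdspl2 1 of each of these, while no match of 7 bases was found in Ctdsp1. The Ctdspl2 miR-26 match lay in 2 of its 4 coding transcripts with a 3′ UTR, and its miR-101b-3p match in 3 of 4. Rest held 1 miR-26 match. The Ctdsp2 and Rest matches are shown because these genes tie the miR-26 hosts to neuronal gene silencing.
Ctdsp2, miR-26, chr10:126997556-126997580, plus strand: gtgttgctctTACTTGAtttgccaa
Rest, miR-26, chr5:77283323-77283347, plus strand: cttagtaaatTACTTGAagaatttg
These UTRs are 3489 and 3448 nt long, against 402 nt for Ezh2. Those of Suz12, Ctdspl and Ctdspl2 are 1933, 3349 and 3014 nt long. The shares of matches among 3′ UTRs near the length of that of Ezh2 do not apply at these lengths, and none was computed for them.

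Other microRNAs known to act on Ezh2 were measured beside the members. Of 19 such genes, from the let-7, miR-124 and miR-138 families with Mir98, Mir214 and Mir217, 17 were found and tested. They held 13.6% ± 0.460 of gene reads (SD, n = 2), against 1.57% for the miR-26 genes and 0.177% for the miR-101 genes. Their highest gene was Mirlet7g, a let-7 gene linked to differentiation, at 61193 ± 2438 CPM. Between the pools 5 of the 17 were called higher and 5 lower in replicate 2, against 15.3% higher and 20.7% lower over all genes tested, with a median log2 ratio of 0.02 against -0.01. Of 12 microRNA genes linked to Rest, from miR-9, miR-124, miR-132, miR-212 and miR-29, 10 were tested, with 2 higher, 0 lower and a median of 0.26, beside the same 15.3%, 20.7% and -0.01 over all genes tested. Its highest gene was Mir132, an activity-linked neuronal microRNA, at 1062 ± 67.3 CPM. Several genes of both lists are multi-copy, as Mir26a-1 and Mir26a-2 are, so their shares also leave out reads placed at several loci.

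The tissue label was checked against its markers. Of 11 brain microRNA genes, 10 were found and tested; they held 1.19% and 1.36% of gene reads in replicates 1 and 2, and the highest was Mir137 at 8360 ± 637 CPM. The brain list has multi-copy genes, whose reads at several loci it leaves out. Mir10a and Mir10b, taken here as markers of hindbrain position, held 9.09% and 13.0% of gene reads in the 2 libraries. No other tissue is part of the series, so whether they set the hindbrain apart was not tested. Markers of other tissues (liver, muscle, blood, endothelium and smooth muscle) held 3.23% and 2.85%, most of it from endothelial Mir126a (24151 ± 2193 CPM). The brain list's share was below theirs. Whole hindbrain holds vessels and blood of its own, so these shares do not measure tissue from outside the hindbrain. Of the muscle markers, Mir206 had 107 and 113 reads and Mir133b had none. These shares differ between the pools. Of the 10 brain genes, 4 were called higher and 0 lower in replicate 2 (median log2 ratio 0.23). Both position markers were called higher (median 0.54). Of 7 tested markers of other tissues, 1 was called higher and 5 lower (median -0.24). Over all genes tested 15.3% were higher, 20.7% lower and the median was -0.01. These calls cover counting error only, and the part of these differences in the ratios of the members was not tested. Replicate 1 held 8327917 reads and replicate 2 held 10507754, of which 48.4% and 47.0% were assigned to microRNA genes.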

How the data were processed

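The authors deposited raw read counts per microRNA gene for each library, on mm10 with GENCODE M4 per the file headers of the notes deposited with them. For aligner and counter, the sources used here give no name. Each row holds counts for both strands, the gene's strand (the column used) and the opposite strand. Reads placed at several loci, unmapped or outside genes are listed in rows that name no gene. These rows held 35.4% and 34.2%, 13.7% and 15.8%, and 2.56% and 2.96% of the reads in replicates 1 and 2 and were left out of library sizes.

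From these counts CPM, SDs over 2 libraries, exact Clopper-Pearson 95% intervals and TMM factors (edgeR 4.0.16, R 4.3.3) were computed. The binomial comparison used scipy 1.17.1 in Python 3.11.15, with adjustment over 426 genes, a threshold of 0.05 and a minimum of 10 reads. It was tested on simulated counts that had counting error only, which is the error it assumes. That test therefore does not cover variation between pools. DESeq2 1.42.0 size factors, total counts, other minimums, both strands and edgeR's exact test were the alternatives. No model with residual error could be fitted to 1 library against 1. The counts are of reads, with no molecular identifiers named in the labels, so intervals cover counting error only. Sequences came from RefSeq (GRCm38.p6) and GENCODE M21.

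The members and lists were chosen with earlier results of these data known. All 5 members were named, with the genes next to each in mean CPM, loci sharing their sequence and the highest gene of each list. Ctdsp2 and Rest windows were picked after the matches were seen.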

Additional observations from a re-analysis of the deposited data

How the results depend on the processing

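Both member calls rest on counting error alone: edgeR's exact test called 0 members with a coefficient of variation of 0.1 and 0 with 0.2 (6 and 0 of all 426 genes, against 153 by the binomial test, and 32 and 12 at an unadjusted p under 0.05). The binomial count stayed at 2 members with DESeq2 size factors, total counts, both strands, no minimum and a minimum of 50 reads, which leaves Mir26a-1 out. Without a minimum, 72 genes were called higher and 65 lower in replicate 2, against 65 and 88. The log2 ratio of Mir26b ranged from -0.10 to -0.07 and that of Mir26a-2 from 0.54 to 0.57. With all reads of a library as the denominator the miR-26 genes held 0.731% and the miR-101 genes 0.0827%, by construction. With either replicate left out the miR-26 share ran from 1.52% to 1.61% and the miR-101 share from 0.174% to 0.181%. The order of the members, the count of 4 members with a shared stretch (minimum 18 nt) and the number of Ezh2 matches (6 bases) kept their values. A lower minimum could only add members to that count. Mir101a and Mir101b share exactly 20 nt, so a higher minimum would leave them out, and none was tried. Few assigned reads limit the precision of Mir26a-1 and Mir26a-2, and their counts do not give the level of the shared arm. No paired analysis was possible because there is 1 group.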
